A study of Mus musculus with 48 samples.

Results

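The comparison described here is that of aortas from newborn mice lacking Efemp2, the gene of fibulin-4, with aortas of wild-type mice of the same age. It was made from 8 of the 48 expression arrays in the series, 4 knockout (KO) and 4 wild type (WT), chosen by their sample titles as the Efemp2 samples of postnatal day 1 (P1). All 8 came from the C57BL/6 strain. Ascending aorta (AA) and descending aorta (DA) were dissected separately, so that there were 4 groups of 2 arrays each (KO AA, WT AA, KO DA and WT DA). Each array measured RNA from 8 pooled tissues of 1 kind, amplified from 5 ng of total RNA. The labels give the genotype as knockout or wild type and name no allele, no Cre and no litter. It is also not stated whether AA and DA pools came from the same mice. No label says that the 2 arrays of a group came from different litters, so p-values measure spread between pools. Unless a smaller fit is named, that spread was pooled within groups over all 48 arrays of the series, not over these 8 alone. The other groups of the series cover Eln and Lox knockouts and embryonic day 17.5 (E17.5), and 2 of them, Efemp2 at E17.5 and Eln at P1 with their own wild types, are used below.

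Fibulin-4 is a secreted glycoprotein of the elastic fibre. It binds lysyl oxidase and tropoelastin and is needed for elastin to be cross-linked into the lamellae that let a large artery stretch and recoil, and mice without it are known to die around birth with tortuous, aneurysmal arteries. Smooth muscle cells of the aortic wall make most of the elastin, collagen and microfibril proteins and also sense the stretch that these fibres carry.

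Signals are log2 values of the deposited, normalised table, each for 1 probe set, so a difference of 1 is a doubling, and levels are compared only within a gene. Differences are KO less WT, averaged over AA and DA unless 1 of them is named, with the standard error of limma's fit to all 48 arrays, and they are called past the threshold at a Benjamini-Hochberg adjusted p below 0.05 over 15337 genes. No probe set of the array is named Efemp2, so the deletion itself could not be checked. Myh11 (8.70 to 9.22 over the 8 arrays) and Acta2 (12.10 to 12.45), defining markers of the smooth muscle of the labelled tissue, were present on every array. Replicate arrays correlated at 0.97 in both KO groups, at 0.94 in WT DA and at 0.91 in WT AA. Replicate 2 of WT AA and of WT DA stood apart by background: the median signal of probe sets without a gene symbol was 4.36 and 4.37 on them and 3.97 to 4.14 on the other 6 arrays. Counts of the main lists are also given without these 2 arrays.

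Genes higher in KO outnumbered genes lower in KO. In the mean over AA and DA, 1084 genes (7.07%) were higher and 193 (1.26%) were lower, and the median over all 15337 genes was 0.08. Of the 1084, 1081 had a positive difference in both segments, and of the 193, 188 had a negative one in both. For 604 of the higher and 67 of the lower genes the 4 KO arrays did not overlap the 4 WT arrays; over all genes this held for 6.65% upward and 1.34% downward. Within 1 segment, where 2 arrays meet 2, both KO arrays were higher for 27.6% of genes in AA and 26.4% in DA and lower for 13.6% and 12%. The counts rest on how the spread was estimated and on single arrays of both WT and KO. A fit to the 8 arrays alone, with location as a block, called 36 genes higher (0.235%) and 1 lower (0.00652%), and a fit to the 16 Eln and Efemp2 arrays of P1 called 70 (0.456%) and 3 (0.0196%). Without the 2 arrays of raised background 391 were higher (2.55%) and 228 lower (1.49%), of which 339 and 65 also passed with all arrays. Genes higher in KO were 84.9% of the called genes, 63.2% without those 2 arrays and 57.1% after cyclic loess normalisation, which placed 316 genes higher and 237 lower. Leaving out replicate 2 of WT DA gave 319 higher genes and leaving out replicate 1 gave 1912. Of the list members and the 15 named rises described below, both of these smaller fits passed Col8a1, Col11a1, Col12a1, Ltbp2, Plod2, Thbs1, Igfbp2, Itga11, Itga5, Itgbl1, Cd109, Vegfd, Plaur, Adamts8, Ankrd1, Tnnc1, Adm, Mt2, Errfi1, Serpina3n and Flt1. The fit to 8 arrays passed no other of them. Both fits also passed Ahnak2 and C4b, which are named below for other comparisons. With 4 group means in place of the location block, the fit to 8 arrays called 18 genes higher. Ltbp2, Plod2, Adamts8, Ankrd1, Tnnc1 and Flt1 each lost their call in 1 of 22 other settings.

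The genes nearest to the deletion were those of elastin and its cross-linking. Eln, which encodes elastin, measured 12.02 and 12.09 in KO AA, 11.74 and 11.98 in WT AA, 12.01 and 12.12 in KO DA and 11.99 and 11.88 in WT DA. The KO arrays were the higher in each segment, by little, and the difference was 0.16 ± 0.31 (SE, n = 4 arrays a side, limma adjusted p = 0.800), below the threshold. Lox, lysyl oxidase, which oxidises lysines of elastin and collagen so that they can cross-link, measured 11.11 and 11.32 in KO AA, 10.31 and 10.53 in WT AA, 11.10 and 11.16 in KO DA and 10.56 and 10.06 in WT DA. Its KO arrays all lay above its WT arrays, a difference of 0.81 ± 0.23 (limma adjusted p = 0.0266). That call was lost in 12 of 22 other settings, among them the fit to 8 arrays (adjusted p = 0.105), the fit without the 2 arrays of raised background (0.147), cyclic loess and the fits leaving out replicate 1 of WT AA, replicate 2 of WT DA, replicate 2 of KO AA or either KO DA array. Fbln5, a fibulin that also organises elastin, differed by 0.31 ± 0.12 and did not pass (limma adjusted p = 0.119).

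List counts here and below stand beside 7.07% of all tested genes higher and 1.26% lower in the mean over both segments. In AA those shares were 3.03% and 0.678%, and in DA 1.28% and 0.274%. The fit to 16 arrays called 0.456% of all genes higher and the fit to 8 arrays 0.235%. The elastic fibre and microfibril list held 23 tested genes, of which 6 were higher in KO, and its median difference was 0.30. Fbn2, a microfibril protein typical of fetal tissue, measured 7.92 and 8.06 in KO AA, 7.35 and 7.37 in WT AA, 8.41 and 8.34 in KO DA and 6.87 and 6.36 in WT DA. All 4 KO arrays were above the WT arrays, with the wider gap in DA, and the mean difference was 1.19 ± 0.18 (limma adjusted p = 0.000104). Ltbp2, a latent TGF-beta binding protein that joins microfibrils, rose by 1.06 ± 0.17. The other 4 were the lysyl oxidase relative Loxl3 (0.66), Ltbp1 (0.53), Lox and Emilin2 (0.65). Fbn2 and Ltbp2 also passed without the 2 arrays of raised background and in the fit to 16 arrays, while the other 4 did not. Leaving out replicate 2 of WT DA brought the list to 2, leaving out replicate 2 of KO AA or of KO DA brought it to 3, and under cyclic loess its median fell to 0.05.

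Col8a1 had the largest rise of the 15 named genes that were higher. It encodes a short-chain collagen of the vessel wall that smooth muscle makes after injury. Its signal was 8.22 and 8.65 in KO AA against 5.04 and 5.14 in WT AA, and 8.94 and 8.71 in KO DA against 5.82 and 4.78 in WT DA. The groups were far apart in both segments, a difference of 3.44 ± 0.25 or 10.8-fold (limma adjusted p = 1.79e-10, and 0.000349 in the fit to 8 arrays), and it passed in every setting tried. Col11a1, a minor fibrillar collagen that sets fibril width, measured 7.14 and 6.97 in KO AA, 5.37 and 5.11 in WT AA, 7.79 and 7.79 in KO DA and 6.11 and 5.70 in WT DA. Its KO arrays all exceeded its WT arrays (1.85 ± 0.19, limma adjusted p = 7.73e-08), as did those of Col12a1, a collagen that coats fibrils (1.59 ± 0.15, limma adjusted p = 5.78e-08). The main fibrillar collagen gene Col1a1 differed by 0.45 ± 0.28 and did not pass. Over the 17 genes of fibrillar and fibril-associated collagens, 4 were higher, with Col5a2 (0.61) the only 1 lost without the 2 arrays of raised background, and the median was 0.22.

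Enzymes that modify procollagen formed the next group. Of 15 tested genes for collagen hydroxylation, folding and processing, 8 were higher in KO, with a median of 0.59. Plod2, which hydroxylates telopeptide lysines for stable cross-links, rose by 1.31 ± 0.18, and the prolyl hydroxylase subunits P4ha1 and P4ha3 rose by 1.14 ± 0.15 and 0.91 ± 0.12. P4ha1 measured 7.73 and 7.26 in KO AA, 6.26 and 6.04 in WT AA, 7.28 and 7.33 in KO DA and 6.00 and 6.73 in WT DA, with no overlap. The remaining 5 were P4ha2 (0.65), P4hb (0.48), the collagen chaperone Serpinh1 (0.63), the C-proteinase Bmp1 (0.59) and its enhancer Pcolce (0.59). Without the 2 arrays of raised background P4ha1, P4ha3 and Plod2 passed. The count was 3 without replicate 2 of WT DA, 5 without replicate 2 of WT AA or replicate 1 of KO DA, and 3 higher and 1 lower under cyclic loess.

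Secreted proteins that signal to cells rather than bear load also rose. Thbs1, thrombospondin-1, which binds cells and activates latent TGF-beta, measured 9.50 and 10.05 in KO AA, 6.74 and 7.10 in WT AA, 8.61 and 9.06 in KO DA and 7.08 and 6.15 in WT DA. KO and WT arrays were separate in both segments, by 2.54 ± 0.24 or 5.82-fold (limma adjusted p = 3.98e-08). Ccn2, connective tissue growth factor, rose by 1.36 ± 0.19, Thbs2 by 0.89 ± 0.13, fibronectin (Fn1) by 0.90 ± 0.14 and tenascin-C (Tnc) by 0.64 ± 0.15. With Ccn1, 6 of the 15 tested matricellular genes were higher (median 0.62), and 5 without the 2 arrays of raised background. Igfbp2, a binding protein of insulin-like growth factors, measured 10.17 and 10.31 in KO AA, 8.27 and 6.92 in WT AA, 9.75 and 9.10 in KO DA and 7.48 and 7.00 in WT DA. Its arrays did not overlap (2.41 ± 0.24, limma adjusted p = 7.73e-08), and 3 others of the 11 genes of that growth factor system were higher: Igfbp3 (0.87), Igf2r (0.58) and Igfbp7 (0.39). That count fell from 4 to 2 without replicate 2 of WT DA or without both arrays of raised background.

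Integrins, the receptors for these matrix proteins, were taken next. Itga11, the collagen-binding integrin chain of mesenchymal cells, measured 6.67 and 6.49 in KO AA, 3.95 and 5.08 in WT AA, 7.24 and 7.10 in KO DA and 5.48 and 5.34 in WT DA. KO and WT did not overlap (1.91 ± 0.19, limma adjusted p = 7.73e-08). Itga5, the fibronectin receptor chain, rose by 1.35 ± 0.16, Itgav, the chain that releases TGF-beta from its latent complex, by 0.89 ± 0.15, and Itgbl1, an integrin-like secreted protein, by 1.77 ± 0.24. Of 16 tested genes on the integrin list, 7 were higher, among them Itga1 (0.67), Itga4 (0.68) and Itgb5 (0.60), and its median was 0.55. The 4 with the largest differences passed without the 2 arrays of raised background too. Cd109, a membrane-anchored co-receptor that restrains TGF-beta signalling, rose by 1.90 ± 0.21 and Vegfd, a ligand of lymphatic and vascular endothelium, by 1.67 ± 0.21. For a gene to be tested a group mean had to reach 4.94. For Cd109 only the KO groups among the 4 did so (6.91 in AA and 5.96 in DA, against WT means of 4.59 and 4.49). Vegfd was higher in KO within each segment, but its KO AA arrays (8.75 and 8.54) overlapped its WT DA arrays (8.72 and 8.24).

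**Figure D1:**
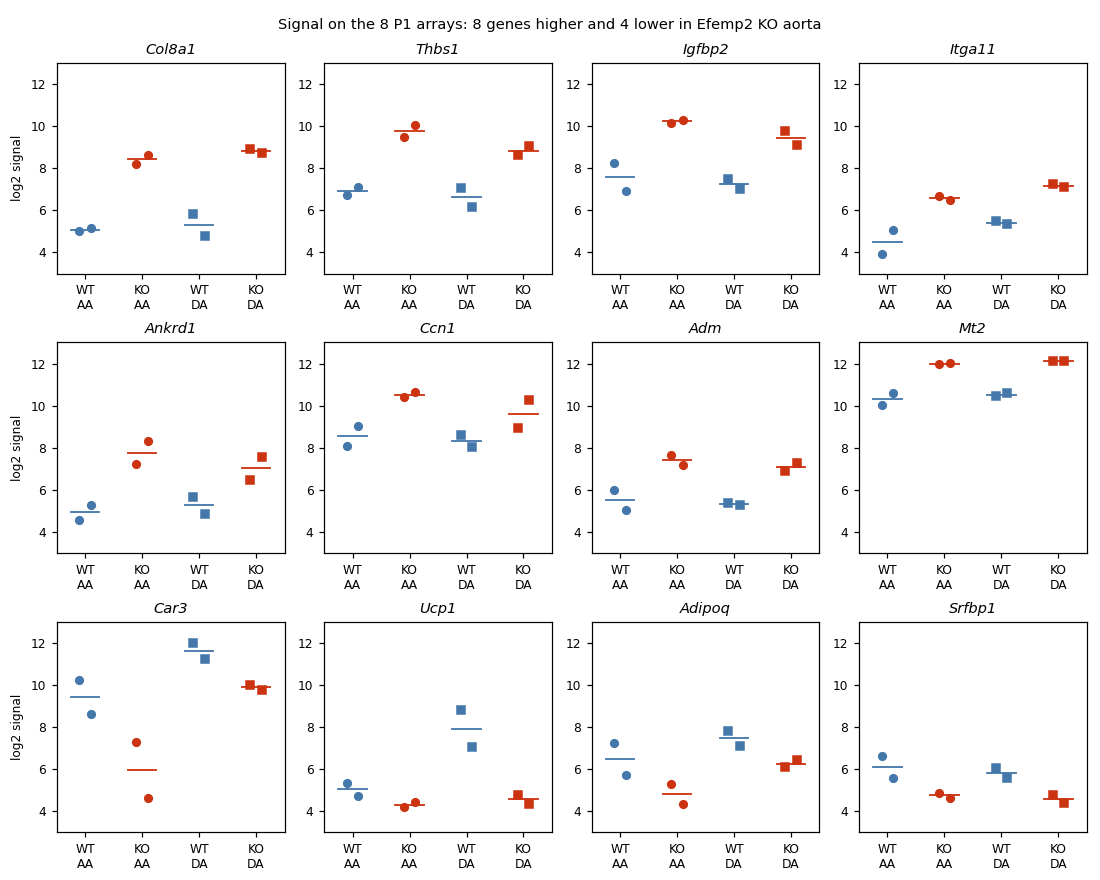
Signal (log2) of 12 genes on each of the 8 arrays. Points are arrays, short lines are group means, blue is WT and red is KO, circles are AA and squares are DA. Col8a1, Thbs1, Igfbp2 and Mt2 show KO arrays clear of WT arrays in both segments, whereas Ucp1 is high only on the 2 WT DA arrays (8.80 and 7.04).

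Remodelling enzymes and the contractile apparatus were examined too. Of 22 tested matrix proteases and inhibitors, 9 were higher (median 0.41), led by Plaur, the urokinase receptor (1.21 ± 0.16), Adamts8 (1.13 ± 0.15) and Timp1, an inhibitor of matrix metalloproteinases (1.08 ± 0.25). Mmp2, a gelatinase of mesenchymal cells, rose by 0.63 ± 0.15. Only 3 of the 9, Plaur, Adamts8 and Adamts1 (0.73), passed without the 2 arrays of raised background, and leaving out replicate 2 of WT DA or of KO DA gave 4 and 5. Of 22 genes on the smooth muscle contractile list, 4 were higher: Smoc1 (0.74), Actg2 (0.63), Cald1 (0.55) and Tpm1 (0.39). Smoc1 encodes a secreted matrix protein and is not itself a contractile gene. The core contractile genes did not pass: Acta2 differed by 0.07 ± 0.15, Myh11 by 0.17 ± 0.14 and Tagln by 0.31 ± 0.13. The list's median was 0.19 and turned to -0.05 under cyclic loess, which called none of the 4, and 1 passed without replicate 2 of WT DA, replicate 2 of KO AA or replicate 1 of KO DA, and 2 without the arrays of raised background, so no direction is given for the contractile genes. Tgfb1 (0.43 ± 0.19) and Tgfb2 (0.52 ± 0.17) did not pass. Among 19 genes of TGF-beta signalling 2, the ligand Tgfb3 (1.00 ± 0.17) and Ltbp1 (0.53), were higher, beside 7.07% of all tested genes. This count rested on single arrays: 8 of the list were higher without replicate 1 of WT DA, 1 without replicate 2 of WT DA, KO AA or KO DA, 1 without both arrays of raised background and under cyclic loess, and limma called 0 in the fits to 8 and to 16 arrays. Ace, the angiotensin-converting enzyme, differed by 0.35 ± 0.14 and did not pass (limma adjusted p = 0.111).

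Genes known to respond to cell stretch through YAP and TEAD factors were higher in part. Ankrd1, a muscle ankyrin repeat protein, measured 7.20 and 8.31 in KO AA, 4.57 and 5.28 in WT AA, 6.45 and 7.58 in KO DA and 5.67 and 4.85 in WT DA. KO arrays were above WT arrays throughout, with the wider gap in AA, and the mean difference was 2.30 ± 0.45 or 4.91-fold (limma adjusted p = 0.00168, and 0.0467 in the fit to 8 arrays with location as a block). With 4 group means in place of the block, that fit did not pass it. Ccn1, a secreted matricellular protein, measured 10.41 and 10.65 in KO AA, 8.10 and 9.01 in WT AA, 8.96 and 10.27 in KO DA and 8.61 and 8.06 in WT DA. Only replicate 1 of KO DA fell within the WT range, and the difference of 1.63 ± 0.33 passed (limma adjusted p = 0.0026) but not in the fits to 8 or 16 arrays. With Ccn2, the clotting initiator F3 (0.91), Myof (0.61), Tead1 (0.61) and Crim1 (0.57), 7 of 15 tested genes of this list were higher, and its median was 0.47. Without the 2 arrays of raised background 4 passed, and without replicate 2 of WT DA or replicate 2 of KO AA also 4.

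The sequences before the start of Ankrd1 and Ccn1 are shown because both genes rose and both are textbook targets of TEAD factors, whose core element is GGAATG. They are the 250 bases before the RefSeq start in build GRCm38.p6, read 5′ to 3′ on the gene's strand, at chr19:36119845-36120094 (minus strand) for Ankrd1 and chr3:145649986-145650235 (minus strand) for Ccn1. Capitals mark GGAATG or, on the other strand, CATTCC.
Ankrd1: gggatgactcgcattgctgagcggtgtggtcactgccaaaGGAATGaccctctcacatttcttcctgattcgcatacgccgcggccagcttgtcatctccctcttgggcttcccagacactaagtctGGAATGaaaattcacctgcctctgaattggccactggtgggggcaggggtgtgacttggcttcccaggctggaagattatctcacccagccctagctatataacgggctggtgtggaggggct
Ccn1: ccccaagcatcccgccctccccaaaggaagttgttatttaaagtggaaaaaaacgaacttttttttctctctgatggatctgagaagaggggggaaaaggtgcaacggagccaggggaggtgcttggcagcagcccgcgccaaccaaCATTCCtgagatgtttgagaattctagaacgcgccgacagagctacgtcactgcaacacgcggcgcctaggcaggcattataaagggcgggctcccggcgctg
Ankrd1 held 2 matches, beginning 210 and 123 bases before the start, and Ccn1 held 1, beginning 103 bases before it. The element, searched on both strands, was in 12.6% of 27025 gene windows of the same length. It was in 3 of the 5 windows found for the 7 higher genes of the list (Ankrd1, Ccn1 and Crim1). A match is a description of the sequence and no measurement of binding.

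Hypoxia and glycolysis genes made up a further group. Adm, which encodes the vasodilator adrenomedullin, measured 7.64 and 7.17 in KO AA, 5.98 and 5.05 in WT AA, 6.91 and 7.26 in KO DA and 5.40 and 5.29 in WT DA. The KO arrays were all higher (1.82 ± 0.25, limma adjusted p = 1.78e-05) and the call held in every setting. Egln3, a prolyl hydroxylase that is itself induced by hypoxia-inducible factors, rose by 1.30 ± 0.24, the glucose transporter Slc2a1 by 0.99 ± 0.16 and the glycolytic enzyme Pgk1 by 0.82 ± 0.17. Pkm (0.57), Ndrg1 (0.57), Pfkp (0.51) and Hk1 (0.50) completed 8 higher genes of 20 tested, with a list median of 0.39. Of the list 6 genes, Ldha among them, passed without the 2 arrays of raised background, and without replicate 2 of WT DA alone 4.

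Egln3 and Slc2a1 are shown in the same way, since hypoxia-inducible factors bind a core of ACGTG. The windows lie at chr12:54203875-54204124 (minus strand) and chr4:119108495-119108744 (plus strand) of GRCm38.p6, from RefSeq, and capitals mark ACGTG.
Egln3: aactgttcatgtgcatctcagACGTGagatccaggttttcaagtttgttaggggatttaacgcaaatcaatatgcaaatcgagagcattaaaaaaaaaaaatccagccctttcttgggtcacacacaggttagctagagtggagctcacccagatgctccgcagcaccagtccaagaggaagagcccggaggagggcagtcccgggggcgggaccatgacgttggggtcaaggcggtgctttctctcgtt
Slc2a1: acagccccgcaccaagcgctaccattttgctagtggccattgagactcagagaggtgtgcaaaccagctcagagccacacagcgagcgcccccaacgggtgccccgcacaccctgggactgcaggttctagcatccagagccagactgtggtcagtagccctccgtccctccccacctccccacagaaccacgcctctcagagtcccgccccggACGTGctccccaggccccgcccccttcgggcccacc
The match began 229 bases before the start of Egln3 and 36 bases before that of Slc2a1. On either strand ACGTG was in 16.6% of the gene windows, and in 3 of the 7 windows found for the 8 higher genes of the list (Egln3, Pgk1 and Slc2a1).

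Glucocorticoid targets and metallothioneins, small metal-binding proteins that stress hormones and metals induce, were tested as 1 list. Of 14 tested genes, 10 were higher in KO, with a median of 0.83, and 8 without the 2 arrays of raised background. Mt2, a metal-binding metallothionein, measured 11.96 and 12.04 in KO AA, 10.02 and 10.59 in WT AA and 12.12 on both KO DA arrays against 10.47 and 10.58 in WT DA. The 4 KO arrays lay within a narrow band above all WT arrays, and the difference was 1.64 ± 0.28 (limma adjusted p = 0.000387). Errfi1, a feedback inhibitor of the epidermal growth factor receptor, rose by 1.52 ± 0.19. Fkbp5, a co-chaperone of the glucocorticoid receptor, rose by 0.84 ± 0.14, the clock gene Per1 by 0.89 ± 0.18 and Zbtb16 by 0.83 ± 0.17, and Mt1 (0.78), Cdkn1a (0.91), Pdk4 (0.80), Lcn2 and Sgk1 followed. Under cyclic loess 4 list genes passed, in the fit to 8 arrays 2, and without replicate 1 of KO DA 6. Among 24 immediate early genes 9 were higher (median 0.40), led by Ier3 (1.43 ± 0.21), Zfp36 (1.19 ± 0.24) and Egr1 (1.12 ± 0.31), and 5 list genes passed without the 2 arrays. Leaving out replicate 2 of WT DA, replicate 2 of KO DA or replicate 1 of KO AA gave 3, 4 and 5.

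**Figure D2:**
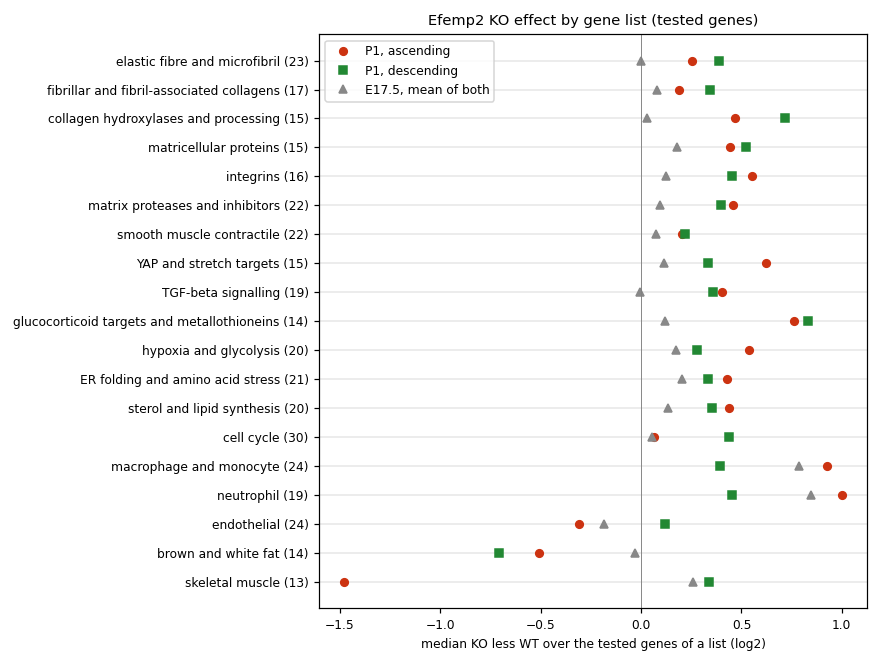
Median difference (log2, KO less WT) of 19 gene lists in P1 AA (circles), P1 DA (squares) and at E17.5 (triangles), with the number of tested genes in brackets. Glucocorticoid targets and metallothioneins lie at 0.76 in AA and 0.83 in DA at P1 and at 0.12 at E17.5, macrophage genes lie at 0.93 in AA and 0.39 in DA, and fat genes lie below 0 at P1.

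Some genes of the acute phase, of macrophages and of neutrophils were higher too. Their calls in single segments lay mostly in AA, but no member of these lists passed the test of DA less AA described below. Serpina3n, a secreted protease inhibitor of the acute phase, measured 8.77 on the lower KO AA array (mean of both 8.88), 7.03 and 6.58 in WT AA, 9.15 and 9.70 in KO DA and 6.79 and 7.19 in WT DA. KO exceeded WT without overlap (2.26 ± 0.42, limma adjusted p = 0.00114). Saa3, an acute phase apolipoprotein, measured 7.13 and 5.89 in KO AA, 5.22 and 3.87 in WT AA, 8.33 and 9.50 in KO DA and 6.50 and 6.57 in WT DA. KO exceeded WT within each segment, though the KO AA and WT DA ranges met, and the mean difference was 2.17 ± 0.41 (limma adjusted p = 0.00126). Osmr, the receptor of oncostatin M, rose by 1.44 ± 0.20, and the iron exporter Slc40a1 by 1.27 ± 0.20.

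Of 24 macrophage and monocyte genes 10 were higher, with a median of 0.62 (0.93 in AA and 0.39 in DA), and 9 passed in AA alone. Laptm5, a lysosomal protein of blood cells, measured 7.62 and 7.42 in KO AA, 5.49 and 6.20 in WT AA, 7.73 and 7.34 in KO DA and 6.66 and 6.52 in WT DA, all KO above all WT (1.31 ± 0.19). Adgre1, the F4/80 antigen of macrophages, rose by 0.88 ± 0.16, Ctss, a lysosomal protease, by 1.10 ± 0.22 and Trem2, a lipid-sensing receptor, by 0.86 ± 0.20. The list's mean signal was 6.49 and 6.28 in WT AA, 7.43 and 7.27 in KO AA, 6.86 and 6.78 in WT DA and 7.32 and 6.98 in KO DA. In RNA from whole tissue, more cells of a kind and more RNA per cell cannot be told apart. The number higher was 6 without the 2 arrays of raised background, 5 without replicate 2 of WT DA, 6 without replicate 1 of KO AA and 4 without replicate 1 of KO DA. The fit to 16 arrays called 2 of the list and limma's fit to 8 arrays called 0.

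Of 19 neutrophil genes 8 were higher in AA, beside 3.03% of all tested genes. In the mean 7 were higher, beside 7.07% of all genes, among them S100a8, a calcium-binding alarmin (1.96 ± 0.40). S100a8 was 11.04 and 10.85 in KO AA, 9.61 and 7.44 in WT AA, 9.44 and 10.57 in KO DA and 8.55 and 8.47 in WT DA. WT AA replicate 2 was the lowest of these arrays, and without it and replicate 2 of WT DA none of the 7 passed. With replicate 2 of WT DA or of KO DA left out 1 passed, leaving out replicate 1 of KO AA left 3 and leaving out replicate 2 of WT AA left 4. Ly6g, a surface antigen of mature neutrophils, went the other way: it was 3.95 and 4.12 in KO AA, 4.41 and 4.63 in WT AA, 3.47 and 3.18 in KO DA and 6.21 and 5.06 in WT DA. Its fall of -1.40 ± 0.23 (limma adjusted p = 0.000264) came with a difference of -2.31 in DA and -0.49 in AA, and most of its signals were below the 4.94 that a group mean had to reach for a gene to be tested.

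Falls were led by genes of brown and white fat. Ucp1, the uncoupling protein of brown fat, measured 4.22 and 4.42 in KO AA, 5.37 and 4.75 in WT AA, 4.78 and 4.36 in KO DA and 8.80 and 7.04 in WT DA. It was high on the 2 WT DA arrays alone, and its mean fall of -2.05 ± 0.59 (limma adjusted p = 0.0266) was lost in 11 of 22 other settings, among them leaving out either AA pool of KO, either DA pool of KO or replicate 1 of WT AA or WT DA. Car3, carbonic anhydrase 3 of fat and muscle, measured 7.29 and 4.65 in KO AA, 10.24 and 8.60 in WT AA, 10.02 and 9.77 in KO DA and 11.98 and 11.22 in WT DA. KO was lower in each segment (-2.58 ± 0.54, limma adjusted p = 0.00287). Adipoq, the fat hormone adiponectin, was 5.28 and 4.36 in KO AA, 7.27 and 5.73 in WT AA, 6.09 and 6.42 in KO DA and 7.83 and 7.10 in WT DA, a fall of -1.45 ± 0.32 (limma adjusted p = 0.00462).

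Of 14 tested fat genes 5 were lower, with and without the 2 arrays of raised background, the other 2 being the lipid droplet proteins Cidea (-1.13) and Cidec (-1.17), and the median was -0.62. The list's mean signal was 6.60 and 6.11 in WT AA, 5.90 and 5.71 in KO AA, 7.86 and 7.05 in WT DA and 6.48 and 6.50 in KO DA. Leaving out replicate 1 of WT AA, of WT DA, of KO AA or of KO DA, or replicate 2 of KO DA, left 2 lower, and leaving out replicate 2 of KO AA left 3. Cox8b, a cytochrome oxidase subunit of muscle and brown fat (-1.89 ± 0.45), the retinol-binding protein Rbp7 (-1.44), Gpd1, which makes glycerol phosphate (-1.25), the fat-cell gene Adig (-1.14) and the lipogenic Thrsp (-0.93) were lower too. Adig differed by -2.14 in DA and by -0.15 in AA, where KO (3.90 and 3.59) and WT arrays (4.36 and 3.43) overlapped. Beyond fat, the other named falls were Ly6g, Srfbp1, a cofactor of serum response factor (-1.28), Vwc2, a secreted antagonist of bone morphogenetic proteins (-1.03), the chitinase-like Chil5 (-0.99) and the methyltransferase Inmt (-0.93). For Ly6g, Adig, Cidec, Vwc2, Chil5 and Inmt only WT groups among the 4 reached the signal of 4.94 needed for a test. The same held for Ucp1, Rbp7, Srfbp1 and Gpd1. Under a filter on the mean of the 8 arrays the first 6 had no test, and 108 genes were lower in place of 193. Of all 15 named falls, 7 had 4 KO arrays below 4 WT arrays, 2 (Car3 and Ly6g) passed in the fit to 16 arrays, and the fit to 8 arrays with location as a block passed none. That fit had 5 residual degrees of freedom and called 1 gene lower in all. Of the 15 named rises, by contrast, 14 passed in the fit to 16 arrays and 13 in the fit to 8. How much fat each pool held was not measured, and its part in these falls was not tested.

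Other cell types were followed by their marker lists. Skeletal muscle genes had a mean signal of 6.74 and 8.11 in WT AA, 6.27 and 5.56 in KO AA, and 5.47 to 5.85 on the 4 DA arrays. In AA 3 of its 13 genes were lower in KO, Mylpf, the fast muscle light chain, by -2.93 and Tnni2, the fast troponin I, by -1.94 among them. None of the 13 passed in the mean, and their part in the falls of AA was not tested. Of 16 heart muscle genes 4 were higher, 2 of them, Ankrd1 and Tnnc1 (1.74 ± 0.29), in the fit to 16 arrays and without the 2 arrays. Leaving out any P1 array of the comparison but replicate 1 of WT AA or WT DA also gave 2. The others were Tnnt2 (1.03) and Myl7 (1.54), and the atrial light chain Myl7 was 10.55 and 10.84 in KO DA against 9.35 and 7.48 in WT DA. The mean signal of the heart list was 7.23 and 7.12 in KO DA and 6.56 and 6.00 in WT DA, and its part in the rises of Tnnc1 and Ankrd1 was not tested.

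Endothelial genes split. Flt1, a receptor of vascular endothelial growth factor, rose by 1.17 ± 0.15 (limma adjusted p = 9.81e-06), with Sele (0.88) and Vcam1 (0.70), adhesion molecules for leukocytes, and Eng (0.82). The tight junction gene Cldn5 (-0.80 ± 0.18), Egfl7 (-0.79 ± 0.18), the connexin Gja5 (-0.59) and VE-cadherin (Cdh5, -0.55) were lower. So 4 of 24 tested genes were higher and 4 lower, and the median was -0.17. Leaving out replicate 2 of KO AA gave 2 lower, and cyclic loess gave 2 higher and 8 lower. With the arrays of raised background left out there were 2 higher and 3 lower. Cldn5 measured 6.00 and 5.51 in KO AA and 7.32 and 6.61 in WT AA, with smaller gaps in DA, where KO had 7.18 and 6.54 and WT 7.45 and 7.05. Erythroid, platelet, lymphocyte and mast cell lists had no member past the threshold in either direction by limma, and the smallest adjusted p among the erythroid genes was 0.0512 (Klf1).

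**Figure D3:**
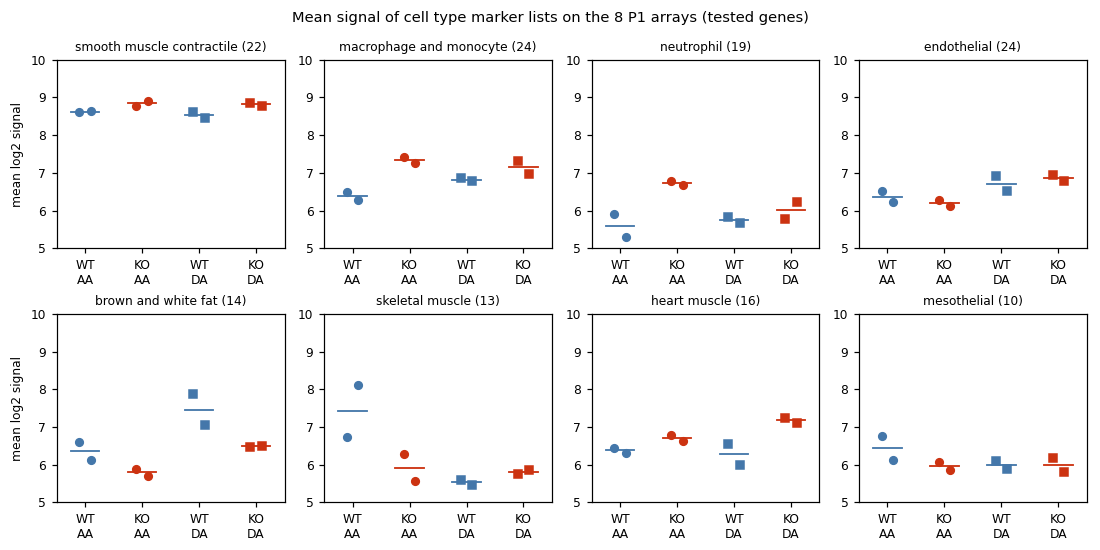
Mean signal (log2) of 8 marker lists on each of the 8 arrays, with WT in blue, KO in red, circles for AA and squares for DA. Fat genes are highest in WT DA (7.86 and 7.05), skeletal muscle genes are highest in WT AA (6.74 and 8.11), and macrophage genes are higher in KO than WT in each segment.

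The segments were then taken apart. In AA 464 genes (3.03%) were higher and 104 (0.678%) lower, and in DA 196 (1.28%) were higher and 42 (0.274%) lower, with 60 genes higher in both. Without the 2 arrays of raised background AA had 630 higher (4.11%) and 486 lower (3.17%) and DA 38 (0.248%) and 31 (0.202%). No gene was lower in both by limma, where 2936 genes in AA had an unadjusted p below 0.05. Among the 15 named rises 14 passed in AA and 13 in DA. Genes named for AA were Ptgs2, the inducible cyclooxygenase that makes prostaglandins (2.45 ± 0.47 in AA, 0.73 in DA), Hmox1, haem oxygenase 1 (2.07 ± 0.41 and 0.73), and Retnlg, a neutrophil resistin relative (2.04 and 0.06). Of the 4 group means of Retnlg only that of KO AA (5.58) reached the 4.94 needed for a test. Under a filter on the mean of the 8 arrays it had no test. Ptgs2 reached 4.94 in the KO groups alone (WT means 4.86 in AA and 4.63 in DA). Ptgs2 measured 6.81 and 7.82 in KO AA, 4.73 and 4.99 in WT AA, 5.21 and 5.51 in KO DA and 4.72 and 4.54 in WT DA, higher in KO in both segments and most in AA. Without replicate 2 of KO AA the AA calls of Ptgs2 and Hmox1 were lost, and without replicate 1 that of Retnlg. Genes lower in AA were Tmem213 (-2.15), Tagap1 (-1.82) and Cst9 (-1.74), and each lost its call without replicate 1 of WT AA or either KO AA array. Their only group mean above 4.94 in this comparison was that of WT AA, and under a filter on the mean of the 8 arrays none of them had a test. Tmem213 owed its value to 1 array: WT AA replicate 1 had 6.72 and the other 7 arrays 2.76 to 3.83, and its AA difference was -0.71 without that array.

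Genes named for DA were Scg2, a secretogranin of secretory vesicles (1.87 ± 0.32 in DA, 0.82 in AA), Fbn2 (1.75 ± 0.26 in DA, 0.63 in AA) and Ahnak2, a large scaffold protein (1.53 ± 0.22 in DA, 1.68 in AA). Scg2 measured 7.75 and 7.33 in KO DA against 5.77 and 5.58 in WT DA, and 4.85 and 5.56 in KO AA against 4.35 and 4.41 in WT AA. Those lower in DA were Aqp7, the glycerol channel of fat (-1.49), Has1, a hyaluronan synthase (-0.84), and the deacetylase Hdac8 (-0.82), which had no test under that filter. Each of the latter 3 lost its call when replicate 1 of WT DA or replicate 2 of KO DA was left out, Has1 and Hdac8 also without replicate 2 of WT DA, and Aqp7 and Has1 without replicate 1 of KO DA. None of the 6 passed in DA in the fits to 8 or 16 arrays.

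The difference between the segments was then tested. The KO effect in DA less that in AA passed for 3 genes (0.0196%), all lower, against 0 higher by limma, with 1224 genes at an unadjusted p below 0.05. They were Stk38l, a kinase of the Hippo-related NDR family, and 2 genes outside the naming rule, DQ267101 and Olfr1307. Stk38l measured 6.58 and 6.51 in KO AA, 4.33 and 5.50 in WT AA, 5.74 and 5.88 in KO DA and 6.95 and 6.10 in WT DA. It was higher in KO in AA by 1.63 and 0.71 lower in DA, a difference of -2.34 ± 0.40 (limma adjusted p = 0.0153) that was lost in the fits to 8 and 16 arrays and when replicate 1 of WT AA, replicate 1 of KO DA or either KO AA array was left out. None of Ptgs2, Hmox1, Fbn2 and Scg2 passed this test. Without the 2 arrays of raised background 54 genes were higher (0.352%) and 58 lower (0.378%) in DA than AA, and leaving out replicate 2 of WT AA alone gave 324 genes in all.

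**Figure D4:**
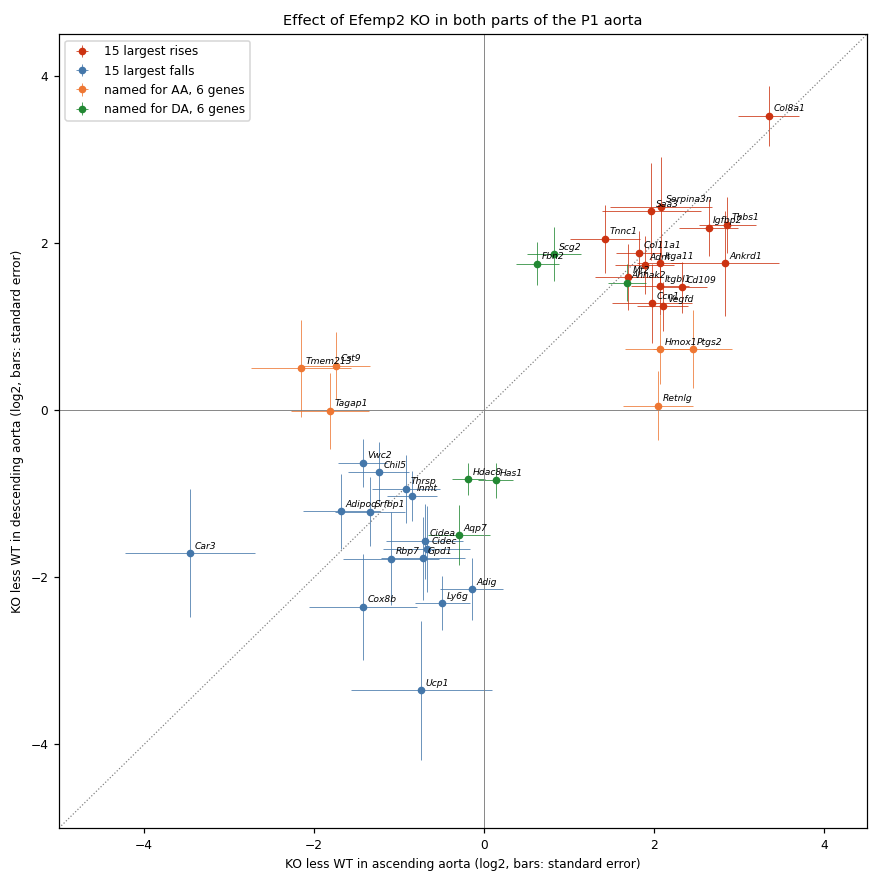
KO less WT difference (log2) in AA (horizontal axis) against DA (vertical axis) with standard errors for the 15 named rises, the 15 named falls and the 6 genes named for each segment. The dotted line marks equal effects. Col8a1 lies near it at 3.35 in AA and 3.53 in DA, while Ucp1 (-0.74 and -3.35) and Ptgs2 (2.45 and 0.73) lie away from it.

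The same knockout at E17.5 had been measured on 8 arrays of its own. There 88 genes (0.574%) were higher and 32 (0.209%) lower. Of the genes higher at P1, 51 were also higher at E17.5, which is 4.71% of the P1 genes and 58.0% of the E17.5 genes. Col8a1 (2.45), Thbs1 (1.58), Igfbp2 (2.24), Serpina3n (2.76), Saa3 (2.92), Col11a1 (0.98) and Mt2 (1.36) were the 7 of the 15 named rises that passed at E17.5. The test of the difference, P1 less E17.5, passed for 176 genes upward (1.15%) and 28 downward (0.183%), with a median over all genes of 0.10. Itga11 rose by 1.91 at P1 and differed by 0.49 at E17.5, a difference of 1.43 ± 0.27 (limma adjusted p = 0.016). Cd109 (1.37) and Vegfd (1.28) also had the larger effect at P1, as had P4ha1 (0.86), P4ha3 (0.96), Col12a1 (1.04), Itga5 (0.98), Fn1 (0.77), Tgfb3 (1.01), Errfi1 (1.38), Zbtb16 (1.25) and Egln3 (1.46). Among the named genes that passed upward, the difference was largest for Ndufa4l2, a mitochondrial protein induced in hypoxia (1.94 ± 0.32, with 1.18 at P1 and -0.76 at E17.5), then for Ahnak2 (1.62 ± 0.22), Frzb (1.60) and Mxi1 (1.53).

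In the other direction Ccl2, the monocyte chemokine, differed by 0.80 at P1 and rose by 2.53 at E17.5 (-1.73 ± 0.42, limma adjusted p = 0.0394), and Ccl9 (0.40 and 1.58) and Ccr2, the receptor of Ccl2 (0.18 and 1.63), passed in the same direction. Ccl2 and Ccl9 lost this call without replicate 1 of WT AA, replicate 2 of WT DA or any 1 KO array. Macrophage genes had medians of 0.62 at P1 and 0.79 at E17.5, and neutrophil genes of 0.75 and 0.85. Fat genes had a median of -0.62 at P1 and -0.03 at E17.5, and Adig (-1.44) and Ly6g (-1.34) passed the difference. The number of genes that differed between the stages was 93 without the 2 arrays of raised background (62 upward, 0.404%, and 31 downward, 0.202%), 9 under cyclic loess and 0 in a fit to the 16 Efemp2 arrays alone. Leaving out single P1 arrays gave from 19, without replicate 2 of WT DA, to 840, without replicate 1 of WT DA.

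The Eln knockout at P1, which lacks elastin itself, was set beside the Efemp2 knockout by the same test. Both Eln WT DA arrays of P1 were also treated as arrays of raised background in 1 setting. They make up that whole group, so the comparison with Eln could not be made without them. In Eln KO 1342 genes (8.75%) were higher and 327 (2.13%) lower. The effect of Efemp2 less that of Eln passed for 25 genes upward (0.163%) and 24 downward (0.156%). Eln itself led with 5.97 ± 0.44, since its signal was 5.81 lower in its own knockout. Among the 15 named rises, 8 were also higher in Eln KO, Col8a1 by 2.12, Thbs1 by 1.52, Igfbp2 by 2.48 and Itga11 by 1.42 among them, and only Cd109 (0.30 in Eln KO, difference 1.60 ± 0.30) and Vegfd (0.11, difference 1.56 ± 0.30) differed past the threshold. Lox rose by 0.87 in Eln KO, and the difference between the knockouts of -0.06 ± 0.33 was not past the threshold.

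Complement C4b (1.28 in Efemp2 KO, -0.49 in Eln KO, difference 1.77 ± 0.31), Mxi1, an antagonist of Myc (1.21 and -0.66, difference 1.87), and the macrophage genes Adgre1 (difference 1.37) and Laptm5 (1.18) were higher in Efemp2 KO. So were the iron exporter Slc40a1 (1.44) and Vcam1 (1.09). The macrophage list had a median of 0.62 in Efemp2 KO and -0.07 in Eln KO, and the neutrophil list of 0.75 and -0.10. The fat list fell in both knockouts, with a median of -0.62 in Efemp2 KO and -0.84 in Eln KO, and 0 of its members differed past the threshold. Of the 15 named falls, 4 were also lower in Eln KO and 0 differed between the knockouts past the threshold. Lower in Efemp2 KO than in Eln KO were Moxd1 (-1.70 ± 0.30), the cartilage link protein Hapln1 (-1.69), Tgoln1, a Golgi protein (-1.51), Cldn5 (-1.37 ± 0.25), Pcolce2 (-1.20) and Ace (-0.91). Moxd1 differed by 0.15 in Efemp2 KO and rose by 1.85 in Eln KO. In the fit to the 16 arrays of these 2 knockouts alone Eln was the 1 gene past the threshold, and without the 2 arrays of raised background 160 genes were higher (1.04%) and 243 lower (1.58%).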

How the data were processed

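Expression was measured on 48 Affymetrix arrays of mouse aorta, 2 per group, each hybridised with amplified RNA of pooled tissue. The authors deposited log2 signals made with Affymetrix Expression Console and RMA, per the submitters' processing notes; array name and genome build are not given in the sources used here. Arrays have no read depth, and their number limits the precision.

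Of 41345 probe sets, 23521 carried 1 gene symbol. Symbols were updated through RefSeq, each gene was represented by its probe set of highest mean, and 15337 genes with a group mean of at least 4.94 were tested. One model with 24 group means was fitted to all 48 arrays in limma 3.58.1 (R 4.3.3) with eBayes and Benjamini-Hochberg adjustment at 0.05, and tested on simulated data. Genes were named by rule: Eln, Lox, Fbln5 and Col8a1; the 15 largest called rises and falls of the same sign in AA and DA; 3 each way per segment; and 4 each way for differences between comparisons. All but the first 4 also had to pass without the 2 arrays of raised background, so that setting does not test them. From each of 42 lists up to 6 members of smallest p were eligible. Predicted genes, receptor families of smell, taste and immunity, and small RNAs were skipped. Members and lists were chosen with earlier results of these data known. Alternatives changed the filter, normalisation, arrays fitted and covariates, and left out single arrays.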

Additional observations from a re-analysis of the deposited data

Results flagged for a closer look

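Stk38l was singled out because its KO effect differed between the segments by -2.34 (DA less AA, limma adjusted p = 0.0153), higher in KO in AA and with a negative difference in DA. It lost this call in 8 of 21 other settings.

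For the 8 named genes the effect at P1 differed from that at E17.5 by limma's test of the difference. The P1 effect less the E17.5 effect was 1.94 for Ndufa4l2, 1.62 for Ahnak2, 1.60 for Frzb, a Wnt antagonist, and 1.53 for Mxi1. It was -1.73 for Ccl2, -1.44 for Adig, -1.34 for Ly6g and -1.18 for Ccl9. Ahnak2 kept its call in every setting except the fit to the 16 Efemp2 arrays, and Ndufa4l2 lost it there and under cyclic loess. The other 6 lost it more often: Mxi1 in 13 of 19 settings, Frzb, Ccl2 and Ccl9 in 10 of 19, Adig in 12 of 18 and Ly6g in 10 of 18.

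For another 8 named results the effect at P1 differed between the Efemp2 and the Eln knockout. The Efemp2 effect less the Eln effect was 5.97 for Eln, 1.87 for Mxi1, 1.77 for C4b and 1.60 for Cd109. It was -1.70 for Moxd1, -1.69 for Hapln1, -1.51 for Tgoln1 and -1.37 for Cldn5. C4b, Cd109, Moxd1 and Cldn5 lost the call only in the fit to the 16 arrays of these knockouts. Tgoln1 lost it in 11 of 18 settings, Hapln1 in 8 and Mxi1 in 4, while Eln kept it in all 18.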

How the results depend on the processing

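No named result that passed in the main fit or in another setting changed sign between them. The difference of Eln, which passed in none, ranged from -0.07 to 0.22. List medians near 0 changed sign too. That of smooth muscle genes went from 0.19 to -0.05 under cyclic loess. That of phenotype-switch transcription factors went from 0.16 to -0.08 without the 2 arrays of raised background. The median over all genes went from 0.08 to -0.02 under cyclic loess. Of the 15 named rises 11 kept their call in all 22 settings, and of the 15 named falls 0 did; passing without the 2 arrays of raised background was part of how they were named. Counts moved more, in the order higher, lower, AA, DA, DA less AA, P1 less E17.5 and Efemp2 less Eln, against 1084, 193, 568, 238, 3, 204 and 49. The cause was not tested. The fits to fewer arrays also have fewer degrees of freedom, and the part of this in the counts was not tested. Without a filter, 299 genes were lower, 5 differed between segments and 70 between stages, and a filter on the mean of the 8 arrays gave 108 lower. Cyclic loess gave 316 higher, 352 in AA, 98 in DA, 9 between stages and 81 against Eln. The fit to the 16 Eln and Efemp2 arrays gave 70 higher, 3 lower, 18 in AA, 1 in DA, 0 between segments and 1 against Eln. Group means on the 8 arrays gave 18, 1, 1, 1 and 0 for the first 5, and the location block gave 36 and 1. A background covariate gave 305, 77, 296 and 77 for the first 4 and 91 against Eln. Arrays of raised background were taken as the 2 Efemp2 WT arrays, or as 4 with both Eln WT DA arrays of P1 added. Without the 2 arrays of raised background the counts were 391 higher, 1116 in AA, 69 in DA, 112 between segments, 93 between stages and 403 against Eln. Without the 4 such arrays they were 476 higher, 296 lower, 1325 in AA, 96 in DA and 148 between segments. Of the settings chosen after seeing the data, a random block of AA and DA sharing a pool number gave 9 between segments and 31 between stages. The 16 Efemp2 arrays gave 207, 24, 48, 14, 0 and 0 for the first 6. Leaving out single arrays gave 319 to 1912 higher, 81 to 463 lower, 90 to 967 in AA, 43 to 1015 in DA, 2 to 324 between segments, 19 to 840 between stages and 36 to 189 against Eln. A comparison gave no value where a fit held none of its arrays, or only the mean over segments.

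No label says whether AA and DA arrays of the same replicate number came from the same mice. If they did, the arrays of a genotype would hold fewer independent pools than arrays. The deviations of KO and WT arrays of the same number correlated at 0.0572 in AA and 0.0943 in DA. Those of AA and DA arrays of the same number correlated at 0.294 in WT and -0.0193 in KO. These correlations cannot decide whether mice were shared. With the replicate number as a block 958 genes were higher and 195 lower, 1 differed between segments and 75 between stages.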

Other observations

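Counts of some other lists follow, beside 7.07% of all tested genes higher in the mean. Of 20 genes of sterol and lipid synthesis 6 were higher in KO, among them Hmgcs1 (1.00) and Cyp51 (0.84), enzymes of the cholesterol pathway. Of 21 genes of protein folding in the endoplasmic reticulum 6 were higher, among them the chaperones Calr (0.72) and Canx (0.65). Leaving out replicate 2 of WT DA gave 3 in each list, and the fit to the 16 Eln and Efemp2 arrays gave 0 in each by limma; without the 2 arrays of raised background 2 and 5 were higher. Of 30 cell cycle genes 4 were higher, Cdk1 (0.74) among them, and without the 2 arrays of raised background limma called 0 of them.

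Small leucine-rich proteoglycans, which space collagen fibrils, had 2 of 11 higher, Fmod (1.01 ± 0.24) and Prelp (0.99 ± 0.20). This count was 5 without replicate 1 of WT DA, 1 without replicate 2 of WT DA or replicate 1 of KO DA, and 0 in limma's fits to 8 and to 16 arrays, and Fmod lost its call in 8 of 22 other settings.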
